A study of Homo sapiens with 16 samples.

Results

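FCER2, CLEC4A, TREML2, IGSF3, AMIGO2, QSOX1 and CCL17 are 7 genes with a surface or secreted product, chosen from the genes that the study lists as induced by IL4. The list has others of this kind, such as the cytokine gene IL6. All 7 were found by symbol among the 62714 genes of each count file. They were followed in 16 RNA-seq libraries made from 4 established B cell lymphoma lines of human origin. In every line a lentiviral CRISPR vector with a pool of guides was directed at CREBBP, a histone acetyltransferase gene that is often mutated in follicular lymphoma, or at AAVS, a safe-harbour site that served as the control. Every library, controls included, therefore came from cells that carry Cas9 and guides, and the cells were targeted pools and not clones. From each pool 1 library was made without IL4 (baseline) and 1 after 4 h with IL4 at 10 ng/ml. This gives groups of 4 libraries, 1 per line, named AAVS baseline and AAVS IL4 for the control pools and CREBBP baseline and CREBBP IL4 for the others. SUDHL4 is line 1 and DOHH2 is line 4. For the other two lines the sample titles and the cell line entries name OCILY7 and SUDHL10 in opposite order, and they are called line 2 and line 3.

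IL4 binds a receptor made of IL4R with IL2RG or IL13RA1, whose Janus kinases phosphorylate the transcription factor STAT6. STAT6 dimers enter the nucleus, bind palindromic sites in DNA and recruit acetyltransferases such as CREBBP. In B cells this pathway is known for raising FCER2 (CD23, the low-affinity receptor for IgE), for immunoglobulin class switching to IgE, and for the secretion of chemokines that attract T cells.

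The best known STAT6 site is TTCNNNNGAA, and the same half-sites with 3 bases between them (TTCNNNGAA) are the general STAT site. RefSeq promoter windows (GRCh38.p14, 250 bases before to 50 after a transcription start) were searched for both. Both patterns read alike on either strand, and a window can hold overlapping matches. TTCNNNNGAA was found in 6.44% and TTCNNNGAA in 7.66% of all 35116 windows. The promoter table had windows for FCER2 (2 starts), TREML2 (1), AMIGO2 (2) and QSOX1 (1), and none for CLEC4A, IGSF3 and CCL17. The 3 windows with a match are shown because FCER2 and TREML2 were also 2 of the 3 genes of the set that passed the test for IL4 in the AAVS pools. Each is an 80-base stretch on the minus strand, written 5′ to 3′, with the matched motif in capitals.
FCER2, start 1, chr19:7702125-7702204: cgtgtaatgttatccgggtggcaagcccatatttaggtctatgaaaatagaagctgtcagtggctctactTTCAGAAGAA
FCER2, start 2, chr19:7699598-7699677: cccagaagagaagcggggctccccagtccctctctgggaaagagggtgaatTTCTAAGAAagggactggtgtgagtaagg
TREML2, chr6:41201209-41201288: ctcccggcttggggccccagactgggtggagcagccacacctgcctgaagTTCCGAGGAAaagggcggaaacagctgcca
The match at the first FCER2 start has 4 bases between the half-sites and begins at -3 from the start. The match at the second FCER2 start has 3 bases between them and begins at -185, and that of TREML2 has 4 and begins at -89. The windows of AMIGO2 and QSOX1 held neither motif, which says only that these letters are not in those 300 bases.

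Library depth ranged from 19649735 to 61981976 counts, and the median of the AAVS IL4 libraries, 29790814, was below that of all 16, 44724334. CREBBP mRNA was 270 ± 65.4 CPM (counts per 1000000 counts of the library; SD, n = 4) at AAVS baseline and 232 ± 49.2 CPM at CREBBP baseline (edgeR adjusted p = 0.851). With IL4 it was 300 ± 78.8 CPM in the AAVS pools and 187 ± 79.1 CPM in the CREBBP pools (edgeR adjusted p = 0.218). The mRNA level thus gave no check of the targeting, and editing was not measured here. The study reports that immunoblots of the targeted pools showed loss of the CREBBP protein. The B cell genes CD79A and MS4A1 were present in all 16 libraries, at 213 CPM or more and 588 CPM or more. The 4 AAVS IL4 libraries stood apart from the other 12 in genes that are not on the IL4 list. IGHM, the immunoglobulin mu chain, was between 138 and 1711 CPM in them and at most 0.0696 CPM in the other 12, and CD44, an adhesion receptor, was at least 67.5 CPM against at most 0.472 CPM. Of 10 naive or memory B cell markers, 8 were higher in all 4 of these libraries than in any other, with a summed level of 961 to 4286 CPM against 41.5 to 306 CPM. The same held for 7 of 9 T cell markers (summed 12.4 to 107 CPM against 2.37 to 38.4 CPM), 2 of 6 NK cell markers (4.63 to 22.1 CPM against 0.533 to 2.27 CPM), 2 of 6 plasma cell markers (341 to 1872 CPM against 124 to 1048 CPM), LYZ of 8 monocyte and macrophage markers (5.09 to 21.5 CPM against 0.398 to 3.47 CPM), CLEC10A of 8 dendritic cell markers (14.3 to 36.3 CPM against 5.27 to 13.9 CPM) and COL3A1 of 7 stromal and endothelial markers (3.09 to 38.8 CPM against 0.149 to 39.7 CPM). It held for 0 of 5 B cell markers (2509 to 4501 CPM against 2564 to 5033 CPM) and 0 of 7 germinal centre markers (941 to 1480 CPM against 813 to 1713 CPM). The share of all genes that were higher in all 4 of these libraries than in the other 12 was not determined, so these counts cannot be set against it. The macrophage gene MARCO and the endothelial gene CDH5 were at 0 in all 16 libraries. Across 14703 genes with a mean of at least 1 CPM at AAVS baseline, which are not independent replicates, each AAVS IL4 library was most like the AAVS baseline library of its own line (Pearson's r of log2(CPM + 1) between 0.86 and 0.96), although in line 3 its r of 0.858 was close to the 0.857 with another line. Of the 8 CREBBP libraries 5 were most like their own line, and the other 3, from lines 1 and 3, were more like the other of these lines. Whether these 3 libraries hold the labelled line was not tested, and the pairs within lines 1 and 3 rest on it. Whether the AAVS IL4 libraries hold only the labelled cells, and the part of these transcripts in the results below, was not tested. Every value that rests on the AAVS IL4 libraries carries this limit, whereas the IL4 response of the CREBBP pools and the comparison of both pools at baseline use none of them. In bulk RNA, fewer cells of a type and less RNA per cell cannot be told apart.

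**Figure D1:**
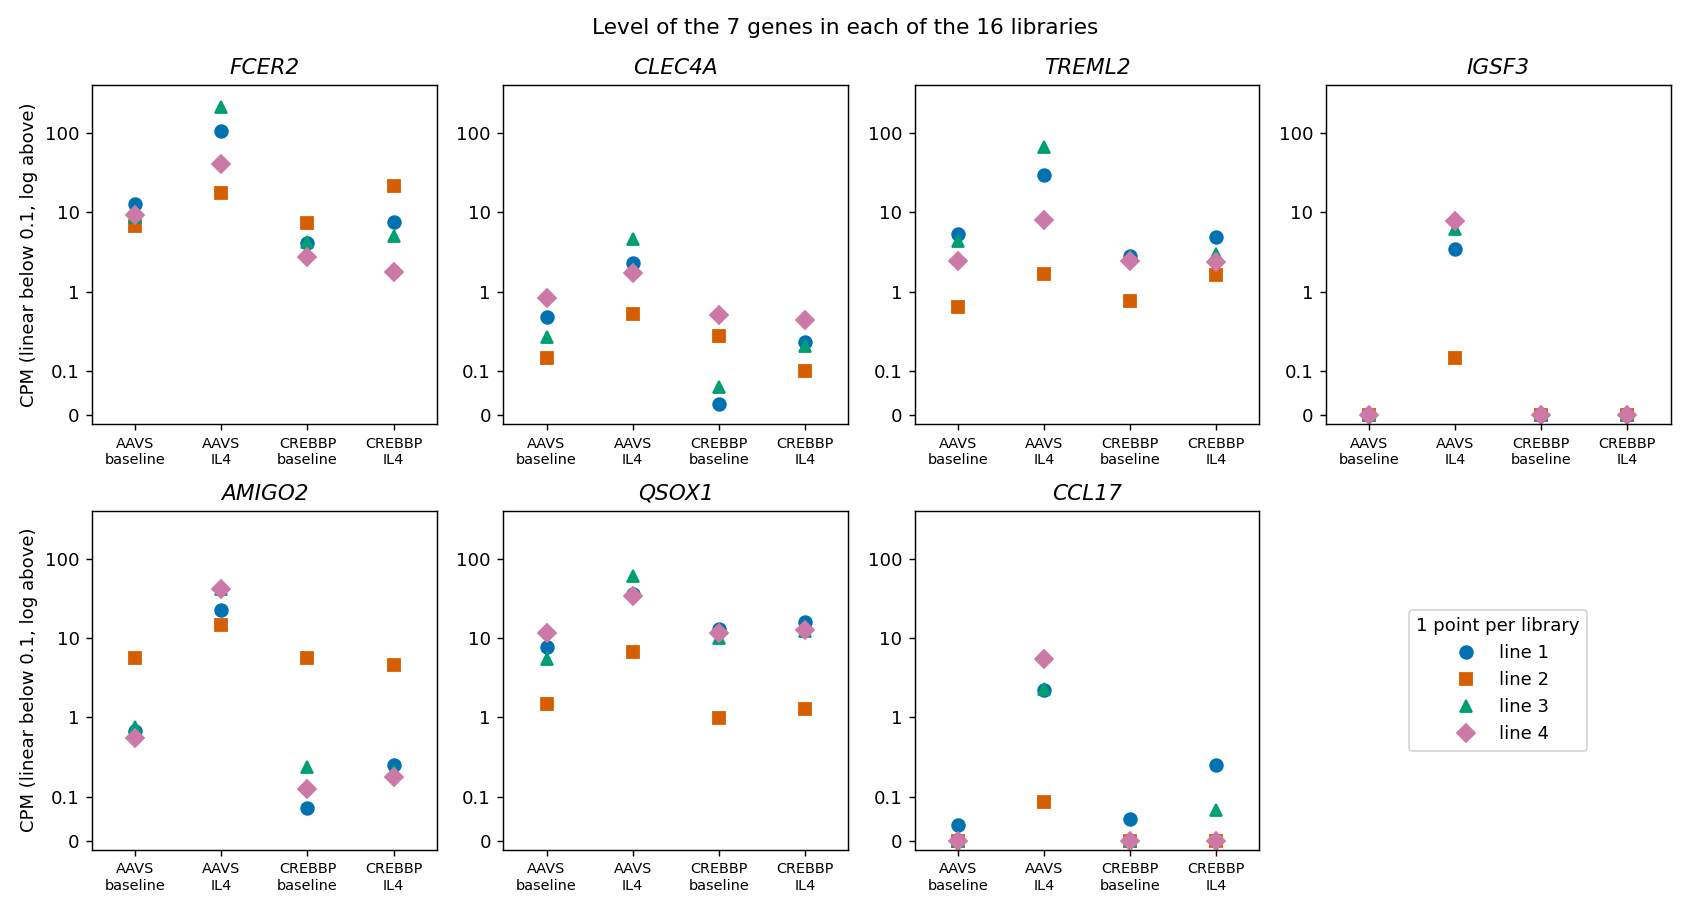
Level of each gene in CPM (vertical axis, linear below 0.1 and logarithmic above) in the 4 groups, with 1 point per library and 1 symbol per line. The AAVS IL4 libraries are the highest of their line for every gene except FCER2 in line 2, where the CREBBP IL4 library is higher (21.3 against 17.5 CPM), and IGSF3 is at 0 outside them.

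The 5 genes of the set that could be tested were all higher with IL4 in the AAVS pools of 4 of 4 lines, as were 17.5% of all genes tested in this comparison. IGSF3 and CCL17 were also higher in 4 of 4 lines, but were not tested and are not covered by this share. For CCL17 in line 2 this rests on 3 counts against 0. FCER2, TREML2 and QSOX1 passed the edgeR test, with fold changes on the log2 scale between 2.28 and 2.71. This is 3 of the 5 genes that could be tested, and 2.39% of all 20310 tested genes were called higher. IGSF3 and CCL17 were removed by the filter on low counts. The median fitted log2 fold change of the 5 tested genes was 2.33, against 0.01 over all genes. Of these 5, CLEC4A reached the level of the filter, which asked for 4 libraries, in 4 AAVS IL4 and 3 AAVS baseline libraries.

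Among the surface receptors, FCER2 (ENSG00000104921, chr19:7688758-7702146, minus strand) had the highest level. At AAVS baseline it was 12.6, 6.79, 8.83 and 9.22 CPM in lines 1 to 4, and with IL4 it was 105, 17.5, 212 and 40.1 CPM. The groups did not overlap, and the rise ranged from 2.57-fold in line 2 to 24.0-fold in line 3. The fitted log2 fold change was 2.71 ± 0.49 (SE), with an edgeR adjusted p of 0.0475.

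TREML2 (ENSG00000112195, chr6:41189749-41201149, minus strand) encodes an immunoglobulin-type receptor of the TREM family. It was 5.26, 0.638, 4.33 and 2.44 CPM at AAVS baseline and 29.6, 1.65, 65.3 and 7.98 CPM with IL4. Line 2 was the lowest in both groups and its IL4 library lay below 3 of the baseline libraries, so that the groups overlapped although each line rose, by 2.59-fold in line 2 and 15.1-fold in line 3. The log2 fold change was 2.33 ± 0.42 (SE; edgeR adjusted p = 0.0471).

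CLEC4A (ENSG00000111729, chr12:8123617-8138607, plus strand) encodes a C-type lectin receptor with an inhibitory motif, known from myeloid cells and B cells. It stayed low, at 0.481, 0.147, 0.267 and 0.821 CPM at AAVS baseline and 2.26, 0.530, 4.58 and 1.70 CPM with IL4, and the groups overlapped through line 2. Its counts in single libraries were between 6 and 90. The log2 fold change of 2.21 ± 0.59 (SE) did not pass (edgeR adjusted p = 0.143). Of its 1296 exon bases, 893 are shared with a long non-coding RNA gene on the same strand (ENSG00000284697), and how the counting divided reads between them was not tested.

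IGSF3 (ENSG00000143061, chr1:116574399-116667755, minus strand) encodes a membrane protein with immunoglobulin domains. It had 0 counts in the 12 libraries outside the AAVS IL4 group and 3.47, 0.147, 6.06 and 7.82 CPM in that group. The 4 AAVS IL4 libraries together held 586 counts, of which 5 came from line 2. Against a floor of 3 counts over the group, it was at least 305-fold higher with IL4.

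AMIGO2 (ENSG00000139211, chr12:47075707-47079959, minus strand) encodes a leucine-rich repeat adhesion protein. It was 0.677, 5.62, 0.759 and 0.554 CPM at AAVS baseline and 22.6, 14.4, 41.6 and 41.1 CPM with IL4. All 4 AAVS IL4 libraries were above the other 12, and line 2 was the highest line at baseline and the lowest with IL4. The ratio of IL4 to baseline was 2.56 in line 2 and 33.3 to 74.2 in the other lines. The log2 fold change of 4.67 ± 0.90 (SE), the largest of the 5 tested genes, missed the threshold (edgeR adjusted p = 0.0555). It was called without line 2 (5.55, edgeR adjusted p = 0.00147), when edgeR called 1035 of all genes, against 488 with all lines. With line 1, line 3 or line 4 left out, it was not called (edgeR adjusted p = 0.256, 0.125 and 0.165). Of its 3964 exon bases, 123 overlap exons of PCED1B on the opposite strand. The strand setting of the counting is not given in the sources used here.

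QSOX1 and CCL17 encode the secreted products of the set. QSOX1 (ENSG00000116260, chr1:180154869-180204030, plus strand) encodes a sulfhydryl oxidase that forms disulfide bonds in secreted proteins. It was 7.72, 1.47, 5.50 and 11.6 CPM at AAVS baseline and 35.3, 6.75, 60.9 and 33.5 CPM with IL4, and line 2 was the lowest in both groups. Line 4 rose least, by 2.88-fold, and line 3 most, by 11.1-fold. With a log2 fold change of 2.28 ± 0.32 (SE), it had the smallest adjusted p of the set (edgeR, 0.0227).

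CCL17 (ENSG00000102970, chr16:57404767-57416063, plus strand) encodes a chemokine that attracts cells with the receptor CCR4. It had 2 counts in the AAVS baseline group, both in line 1 (0.0356 CPM), and 2.18, 0.0884, 2.29 and 5.39 CPM with IL4. The 361 counts with IL4 and the 2 without gave a ratio of 282 after scaling to the group totals, with a 95% exact interval of 77.4 to 2333 that covers counting error only. Line 2 had 3 of the 361 counts.

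Compared per kilobase of exon, FCER2 had the highest mean level at AAVS baseline (3.82 ± 0.98 CPM per kb; SD, n = 4), followed by TREML2 (0.837 ± 0.542), QSOX1 (0.709 ± 0.457), AMIGO2 (0.480 ± 0.625), CLEC4A (0.331 ± 0.228), CCL17 (0.0143 ± 0.0287) and IGSF3 at 0. With IL4, FCER2 was still the highest (38.2 ± 35.6 CPM per kb). AMIGO2 (7.55 ± 3.44), TREML2 (6.91 ± 7.59), CCL17 (4.01 ± 3.51) and QSOX1 (3.68 ± 2.39) followed, then CLEC4A (1.75 ± 1.31) and IGSF3 (0.591 ± 0.451). In this order each gene differed from the next by less than the larger of their SDs.

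The lines ranked differently for different genes. With IL4 in the AAVS pools, FCER2, CLEC4A and TREML2 were highest in line 3, then in line 1, line 4 and line 2, whereas IGSF3 and CCL17 were highest in line 4. Over all 16 libraries, with each line centred on its mean of log2(CPM + 1), the correlations among FCER2, CLEC4A and TREML2 were between 0.95 and 0.98, and those among IGSF3, AMIGO2 and CCL17 between 0.96 and 0.99. Pairs with 1 gene from each of these sets had correlations between 0.80 and 0.93, so the sets were not sharply apart. QSOX1 had correlations between 0.78 and 0.84 with the others. The 3 genes outside the set most like each member by this measure were BCL2A1 (0.98), CD83 (0.97) and ST8SIA4 (0.97) for FCER2, GBP3 (0.99), LINC02035 (0.99) and PLEKHA1 (0.99) for CLEC4A, and LINC01934 (0.99), EML5 (0.98) and VMP1 (0.98) for TREML2. They were BACE2, SEMA4C and RAPH1 (all 0.99) for IGSF3, CCL22, GSTM1 and ZBTB38 (all 0.99) for AMIGO2, EPB41L5 (0.96), ADAMTS7 (0.95) and PSEN2 (0.95) for QSOX1, and EPHB1, IL13RA1 and PHGDH (all 0.98) for CCL17. These are descriptions over libraries that share line, depth and the contrast of the AAVS IL4 group with the rest. IGHM, which is no member, had correlations of 0.81 to 0.94 with the 7 genes, and the B cell gene MS4A1 0.07 to 0.42.

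**Figure D2:**
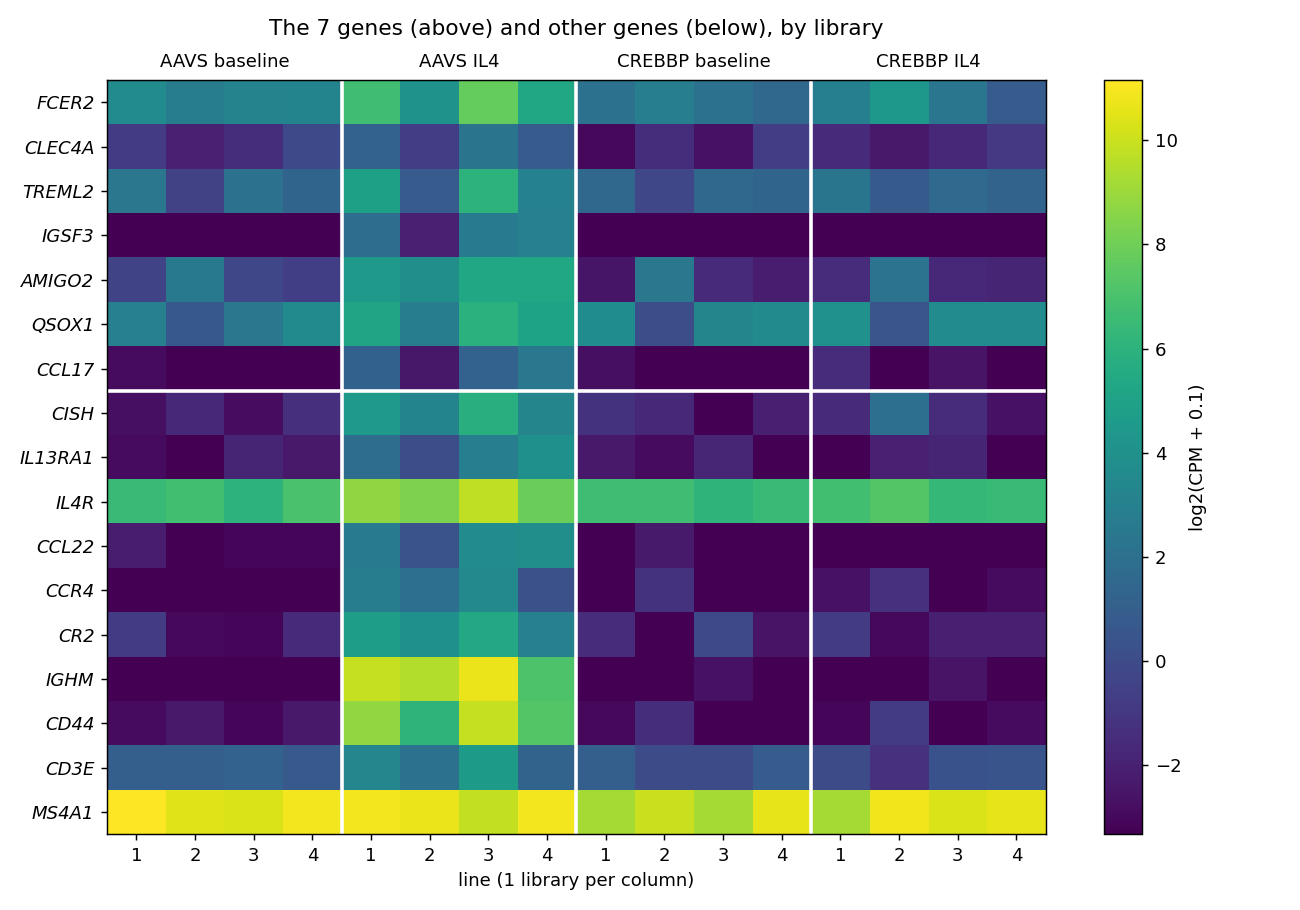
Levels as log2(CPM + 0.1) (colour) of the 7 genes, above the line, and of 10 other genes, below it, in the 16 libraries (columns, by group and line). The 4 AAVS IL4 columns are brighter for the 7 genes and also for IGHM (138 to 1711 CPM against at most 0.0696 CPM) and CD44, while MS4A1 overlaps between all groups.

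Of the 9 genes of the IL4 receptor and its kinases and phosphatases, 2 were called higher with IL4 in the AAVS pools and 0 lower by edgeR, with a median log2 fold change of 1.08. IL13RA1, the partner of IL4R in the type II receptor, rose by 6.34 ± 0.63 on the log2 scale (SE; edgeR adjusted p = 0.00865) and JAK1 rose by 1.28 ± 0.21 (edgeR adjusted p = 0.0340). IL13RA1 was at most 0.194 CPM in the 12 other libraries, below the filter's level of 0.226 CPM. It thus passed the filter through the AAVS IL4 libraries alone, and its direction is no independent result. IL4R itself was 65.1 to 153 CPM in the 12 other libraries and 239 to 870 CPM in AAVS pools with IL4, but did not pass (2.06 ± 0.43, edgeR adjusted p = 0.0715). Of the 29 other genes of the study's IL4 list, which was drawn up on primary B lymphocytes and not on these libraries, 10 were called higher and 0 lower, with a median log2 fold change of 2.14. The 4 with the smallest adjusted p were the cytokine gene IL6 (log2 fold change 9.005, edgeR adjusted p = 0.000799), the guanine nucleotide exchange factor DOCK10 (4.97, edgeR adjusted p = 0.00750), TMEM71 (5.13, edgeR adjusted p = 0.00950) and the homeobox gene HLX, which had 652 counts against 1. IL6, TMEM71 and HLX were at most 0.123, 0.151 and 0.0245 CPM in the 12 other libraries, so the limit given for IL13RA1 holds for them too.

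Of 23 relatives and partners of the 7 genes, 12 could be tested, 3 were called higher and 0 lower, and their median log2 fold change was 0.19. CCL22, the other ligand of CCR4, ends 38.6 kb before CCL17 on chromosome 16. It was 6.28, 1.18, 12.5 and 14.3 CPM with IL4 in the AAVS pools of lines 1 to 4 and no more than 0.125 CPM elsewhere (log2 fold change 7.55 ± 0.83, edgeR adjusted p = 0.0110). CR2 (CD21, a ligand of FCER2) was 27.0, 15.0, 42.2 and 7.90 CPM against at most 0.799 CPM (6.92 ± 0.95, edgeR adjusted p = 0.0225). CCR4, a chemokine receptor best known from T cells, had 0 counts at AAVS baseline and 565 with IL4, at least 294-fold higher (edgeR adjusted p = 0.0267). CCL22 and CCR4 passed the count filter through the AAVS IL4 libraries alone, so that their direction is no independent result. ADAM10, the protease that sheds FCER2 from the membrane, ranged from 77.1 to 110 CPM in AAVS pools with IL4 and from 46.8 to 159 CPM elsewhere. Closer relatives of the lectin and TREM receptors were near 0. CLEC4D had 0 counts in all 16 libraries, CLEC4E and CLEC6A were at most 0.0589 CPM, TREM2 at most 0.0191 CPM and TREML1 at most 0.305 CPM. The calls within the set depended on lines 1 and 4. Without line 1, 0 of the set were called (edgeR adjusted p = 0.219 for FCER2, 0.238 for TREML2 and 0.128 for QSOX1), and without line 4 only QSOX1 was.

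In the CREBBP pools IL4 moved none of the 7 genes past the threshold, and edgeR called 0% of all 18282 tested genes. At an unadjusted p under 0.05 edgeR gave 502 genes, and DESeq2 and limma-voom called 1 and 0. The log2 fold changes of the 5 tested genes were all positive, with a median of 0.50 against -0.04 over all genes. QSOX1 alone was higher in 4 of 4 lines, which held for 4.59% of tested genes. None of these values rests on the AAVS IL4 libraries, and IGHM was at most 0.0696 CPM in all 8 libraries of this comparison.

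FCER2 was 4.11, 7.26, 4.23 and 2.76 CPM at CREBBP baseline and 7.57, 21.3, 5.01 and 1.76 CPM with IL4. It was higher with IL4 in lines 1, 2 and 3 and lower in line 4, and the fitted log2 fold change was 0.56 ± 0.40 (SE; edgeR adjusted p = 0.924). Line 2 had the largest ratio, 2.93-fold with a 95% exact counting interval of 2.52 to 3.42, close to the 2.57-fold (2.23 to 2.98) of its AAVS pool. CISH, a STAT-induced feedback inhibitor on the study's list, went in the same CREBBP pool from 0.206 to 3.83 CPM and was at most 0.328 CPM in the CREBBP libraries of the other lines. It was named after its values were seen, as was the comparison within line 2, which has 1 library per condition and no test.

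TREML2 was 2.77, 0.754, 2.74 and 2.43 CPM without and 4.87, 1.64, 2.95 and 2.36 CPM with IL4 in the CREBBP pools, and its ratio was also largest in line 2, at 2.18-fold (1.33 to 3.70). The fitted log2 fold change was 0.50 ± 0.36 (SE; edgeR adjusted p = 0.924). QSOX1 was 13.1, 0.993, 9.95 and 11.7 CPM and then 15.8, 1.29, 12.4 and 12.5 CPM, with ratios between 1.07 and 1.301 and a log2 fold change of 0.27 ± 0.20 (edgeR adjusted p = 0.924).

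AMIGO2 was 0.0756, 5.51, 0.237 and 0.127 CPM without and 0.253, 4.52, 0.209 and 0.177 CPM with IL4 in the CREBBP pools (log2 fold change 0.38 ± 0.45, edgeR adjusted p = 0.928). Lines 1, 3 and 4 had only 3 to 12 counts per library with or without IL4, a depth at which small changes were not detectable, whereas the AAVS pools of these lines went from 29 to 38 counts to 579 to 1959. CLEC4A was between 0.0252 and 0.509 CPM in the 8 libraries (0.57 ± 0.83, edgeR adjusted p = 0.941). CCL17 had 2 counts without and 15 with IL4, a ratio of 6.62 with a 95% exact counting interval of 1.54 to 59.7. Of the 15 counts 12 were in line 1 and 3 in line 3. IGSF3 had 0 counts in all 8 libraries. Of the 29 other genes of the list 25 were tested and 0 called, as were 0 of 8 receptor and signalling genes and 0 of 8 relatives.

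**Figure D3:**
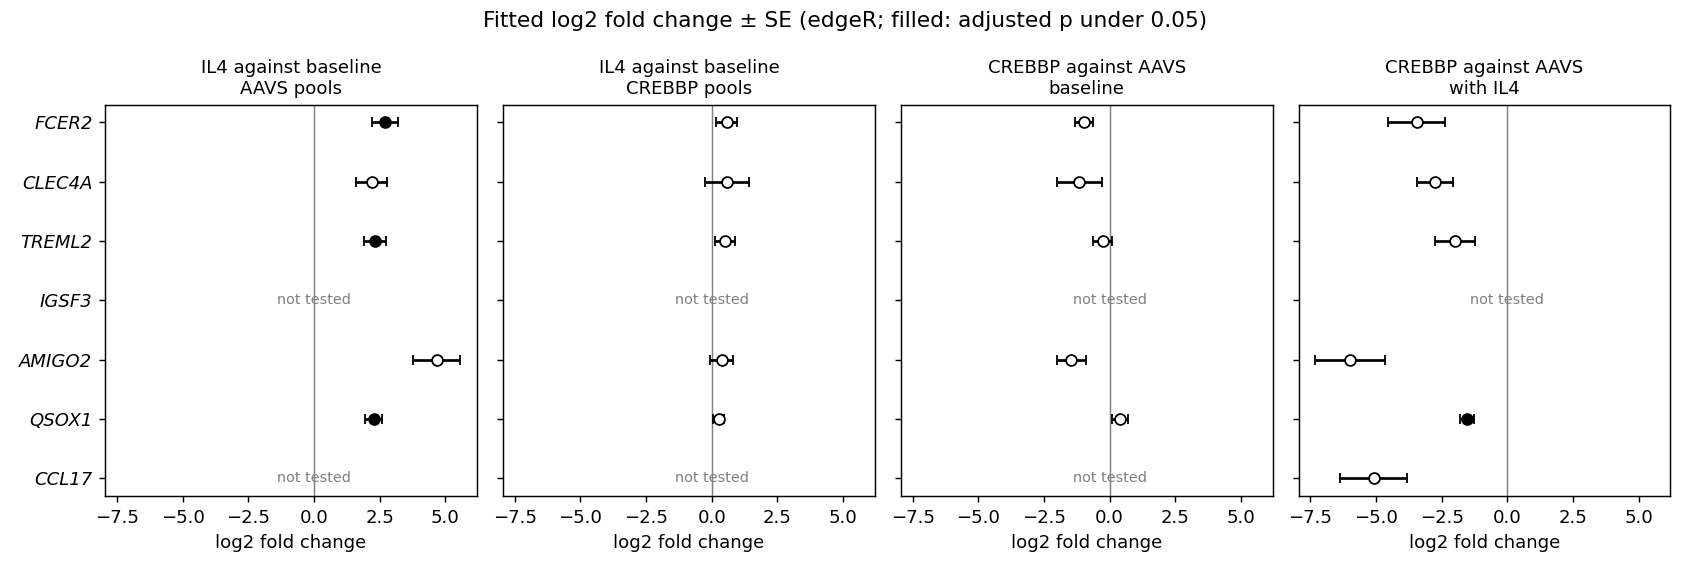
Fitted log2 fold change (horizontal axis) with its SE for each gene in 4 comparisons, from edgeR with the line as a block. Filled points have an adjusted p under 0.05 (FCER2, TREML2 and QSOX1 for IL4 in the AAVS pools, QSOX1 for CREBBP against AAVS with IL4), and genes removed by the count filter are written as not tested.

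At baseline, without IL4, no gene of the set passed the test between CREBBP and AAVS pools. edgeR called 0% of all 18936 tested genes and gave 2422 genes at an unadjusted p under 0.05, while DESeq2 called 511 and limma-voom 39. Of the 5 tested genes of the set 4 were lower and 1 was higher in the CREBBP pools, with a median log2 fold change of -0.99 against -0.03 over all genes. This comparison does not use the AAVS IL4 libraries. It does pair pools by line, and the CREBBP baseline library of line 1 was slightly more like the AAVS baseline library of line 3 (Pearson's r of 0.976) than that of its own line (0.971).

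FCER2 was lower in lines 1, 3 and 4, at 4.11, 4.23 and 2.76 CPM in the CREBBP pools against 12.6, 8.83 and 9.22 CPM in the AAVS pools. In line 2 the values were 7.26 and 6.79 CPM, and the ratio was 1.07 with a 95% exact counting interval of 0.890 to 1.28. The log2 fold change was -0.99 ± 0.35 (SE), with an unadjusted p of 0.0159 and an edgeR adjusted p of 0.314. Without line 2 it was -1.34 with an edgeR adjusted p of 0.0430, when edgeR called 515 of all 19206 tested genes. With line 1, line 3 or line 4 left out, the edgeR adjusted p of FCER2 was 0.755, 0.909 and 0.527.

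AMIGO2 was the only tested member lower in 4 of 4 lines, which held for 14.9% of tested genes. Its ratios were 0.112, 0.313 and 0.230 in lines 1, 3 and 4, from 3 to 11 counts in the CREBBP library, and 0.982 (0.798 to 1.21) in line 2, where the gene was high in both pools. The log2 fold change was -1.46 ± 0.56 (SE; edgeR adjusted p = 0.339). CLEC4A (-1.15 ± 0.86, edgeR adjusted p = 0.606) and TREML2 (-0.26 ± 0.36, edgeR adjusted p = 0.790) had ratios of 0.0524 to 1.86 and of 0.527 to 1.18 over the lines, both highest in line 2. QSOX1 was 1.70-fold and 1.81-fold higher in the CREBBP pools of lines 1 and 3, 1.005-fold in line 4 and 0.675-fold in line 2 (0.40 ± 0.30, edgeR adjusted p = 0.605). CCL17 had 2 counts in each group and IGSF3 had 0. Of the 29 other genes of the list 24 were tested and 0 called, as were 0 of 8 receptor and signalling genes and 0 of 10 relatives.

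**Figure D4:**
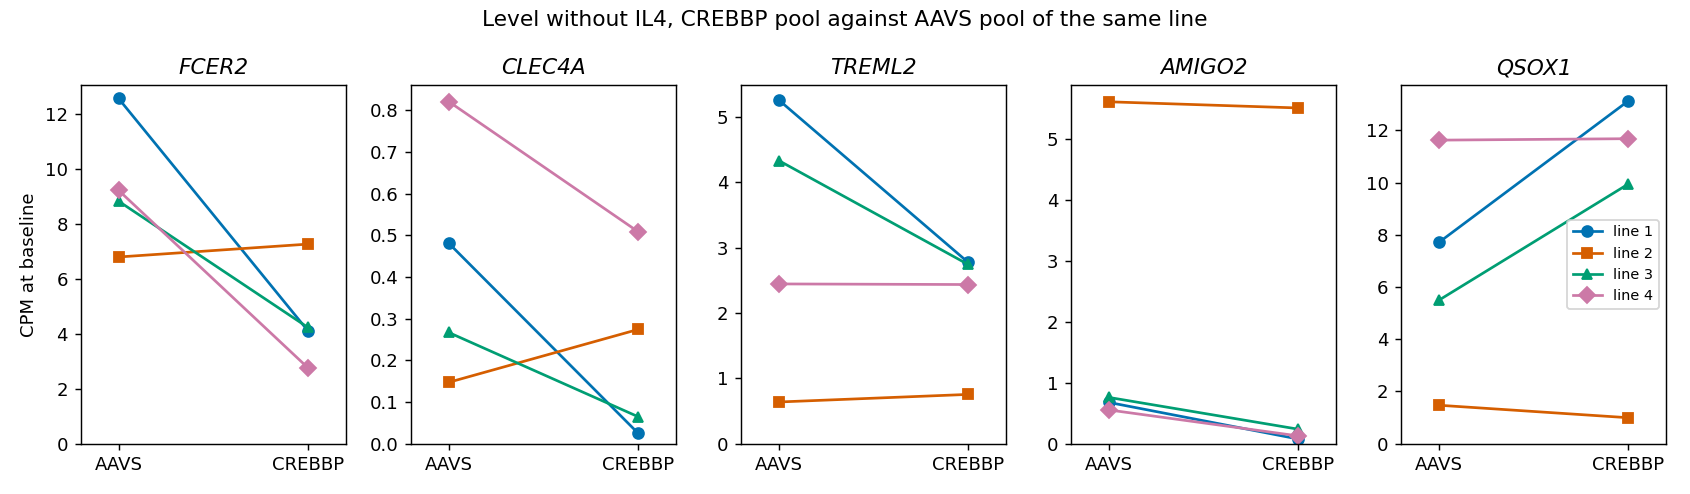
Level without IL4 in CPM (vertical axis, from 0) in the AAVS and the CREBBP pool of each line, joined by a line, for the 5 members that could be tested. FCER2 is lower in the CREBBP pool in lines 1, 3 and 4 and lies at 6.79 and 7.26 CPM in line 2, AMIGO2 is high in line 2 alone, and QSOX1 is lowest in line 2.

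With IL4, 6 of the 7 genes could be tested between CREBBP and AAVS pools and all had a lower fitted level in the CREBBP pools. CCL17 passed the count filter in exactly the 4 libraries needed, 3 of them AAVS IL4 and 1 CREBBP IL4 (line 1). It thus entered mainly through the group where it was high, and is left out of the counts below. The other 5 were tested in every comparison. Of these 5, FCER2, TREML2 and QSOX1 reached the filter's level in 4 libraries of both groups. CLEC4A and AMIGO2 reached it in 4 AAVS IL4 libraries but only 1 and 2 CREBBP IL4 libraries. Both thus also passed here through the group where they were high, and their direction is no independent result. QSOX1 alone was called, with 3.42% of all 19581 tested genes called lower. TREML2 and QSOX1 were lower in 4 of 4 lines, as were 31.6% of all tested genes. CLEC4A and AMIGO2 were too, but are not counted because of this limit. FCER2 was not, since in line 2 it was 21.3 CPM in the CREBBP pool and 17.5 CPM in the AAVS pool. The fitted log2 fold changes of FCER2, TREML2 and QSOX1 were -3.45, -1.99 and -1.54, against a median of -0.05 over all genes. These differences set the AAVS IL4 libraries, with their IGHM of 138 to 1711 CPM, against CREBBP IL4 libraries with at most 0.0696 CPM.

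QSOX1 was 0.191-fold to 0.446-fold of the AAVS level in the 4 lines (log2 fold change -1.54 ± 0.28, SE, edgeR adjusted p = 0.0346). It was no longer called without line 1, line 3 or line 4 (edgeR adjusted p = 0.117, 0.142 and 0.107). AMIGO2 had the largest fitted difference, -5.97 ± 1.33 (edgeR adjusted p = 0.0526), with ratios of 0.0112, 0.00501 and 0.00432 in lines 1, 3 and 4 and 0.315 in line 2. CCL17 followed with -5.09 ± 1.27 (edgeR adjusted p = 0.0667), from 15 counts against 361. FCER2 (-3.45 ± 1.09, edgeR adjusted p = 0.107), CLEC4A (-2.75 ± 0.67, edgeR adjusted p = 0.0635) and TREML2 (-1.99 ± 0.77, edgeR adjusted p = 0.160) did not pass. In line 2 TREML2 had a ratio of 0.994 (0.686 to 1.45). IGSF3 was at least 297-fold lower. Without line 2, edgeR called all 5 of the genes tested in every comparison, when 1661 of all 20535 tested genes were called lower, against 670 with all lines. With line 1, line 3 or line 4 left out, edgeR called 0 of the set. Without line 2, CLEC4A and AMIGO2 reached the filter's level in 3 AAVS IL4 libraries and in 2 and 1 CREBBP IL4 libraries, so their direction is again no independent result. CCL17 and IGSF3 were then also called, but all 3 libraries that the filter needed for them were AAVS IL4 libraries, so their direction there says nothing more. Of the 29 other genes of the list 7 were called lower and 0 higher in the CREBBP pools with IL4. JAK1 was the only one of the 9 receptor and signalling genes called (-1.87 ± 0.32, edgeR adjusted p = 0.0281), and CR2, CCL22 and CCR4 were the only relatives called, all lower. CCL22 had 0 counts in the CREBBP IL4 libraries and passed the filter through the AAVS IL4 libraries alone, so its direction is no independent result. CR2 and CCR4 were at most 0.799 and 0.343 CPM outside the AAVS IL4 group, and how far they passed through that group was not examined.

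The IL4 responses of both pools were also compared directly, as the difference of their log2 fold changes in 1 model of all 16 libraries. Of the 6 tested members CCL17 again passed the filter through 3 AAVS IL4 libraries and 1 other. The other 5 had a smaller fitted response in the CREBBP pools, with a median difference of -1.89 against 0.05 over all genes. edgeR called 0 of the 6, while 0.620% of 21932 tested genes were called lower. DESeq2 called 4 of the set and limma-voom 1. QSOX1 came closest (-1.89 ± 0.38, SE, edgeR adjusted p = 0.0554), followed by AMIGO2 (-4.18 ± 1.01, edgeR adjusted p = 0.104), TREML2 (-1.72 ± 0.56, edgeR adjusted p = 0.225), FCER2 (-2.04 ± 0.68, edgeR adjusted p = 0.236), CCL17 (-5.01 ± 2.18, edgeR adjusted p = 0.365) and CLEC4A (-1.53 ± 0.999, edgeR adjusted p = 0.538). Of the 5 genes 4 had an unadjusted p under 0.05, CLEC4A being the exception, as did 2927 of all 21932 tested genes. Without line 2, FCER2 and AMIGO2 were called (edgeR adjusted p = 0.0480 and 0.00642), when edgeR called 264 of all 22162 tested genes, against 140 with all lines. With line 1, line 3 or line 4 left out, 0 of the set were called. Of the 29 other genes of the list 5 were called, all with a smaller response in the CREBBP pools, DOCK10, SPINT2, VDR and PCED1B with the smallest adjusted p, and CR2 was the 1 relative called (-7.06, edgeR adjusted p = 0.0459).

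The lines also differed from each other. Over the 3 libraries of a line outside the AAVS IL4 group, AMIGO2 was 5.22 ± 0.60 CPM (SD, n = 3) in line 2 and 0.286 to 0.402 CPM on average in the other lines. QSOX1 was the reverse, at 1.25 ± 0.24 CPM in line 2 and 9.27 to 12.2 CPM in the others, and TREML2 was 1.01 ± 0.55 CPM against 2.41 to 4.30 CPM. CLEC4A was highest in line 4, at 0.588 ± 0.205 CPM against 0.174 to 0.246 CPM. FCER2 overlapped between all 4 lines, with means of 4.58 to 11.8 CPM.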

How the data were processed

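RNA-seq was done on 16 libraries, 1 for each of 4 lines in 4 groups. The authors trimmed reads with Cutadapt 2.3, aligned them to GRCh38 with STAR 2.7.8a and deposited RSEM 1.3.3 expected counts per gene, here whole numbers, and not normalized. The kit was stranded. The Ensembl release and the strand setting of the counting are not given in the sources used here. The methods average technical replicates of the primary cells and refer to the same procedure for the lines, without saying how many runs each line had, and averaging would lower the counting error. Of the 62714 genes 20930 have no symbol. Positions and exon lengths are from GENCODE 44, which holds 62639 of the gene IDs.

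CPM was the count over the library total times 1000000. Tests used edgeR 4.0.16 (R 4.3.3): filterByExpr, TMM factors and its quasi-likelihood test, blocked on line, on the libraries of each comparison, with Benjamini-Hochberg adjustment over all tested genes and a threshold of 0.05. Fits were tested on simulated data. SE is the log2 fold change over the root of F. DESeq2 1.42.0, limma 3.58.1 (voom), other filters and factors, no block and each line left out were the alternatives. Ratios within lines have exact binomial intervals (95%), and a group at 0 was set to 3 counts. Intervals cover counting error only. Python 3.11.15, numpy 2.4.6 and pandas 2.3.3 were used for the other steps.

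Same-numbered libraries pair because they come from the same line. Their deviations from the group means had median correlations of 0.56, 0.69, 0.29 and 0.66 in lines 1 to 4 (lowest -0.15, line 3). Within each group no libraries were copies of each other (chi-square per degree of freedom at least 98.7). Libraries of different groups were not compared in this way. Each group has 1 culture per line, so p-values measure the spread between lines.

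The genes and lists were chosen with earlier results of these data known. All 7 genes are given in every sample, and of each list up to 4 called genes by smallest adjusted p. Genes like a member are the 3 with the highest Pearson correlation of line-centred log2(CPM + 1) among genes tested for the difference in response. One marker gene is not reported here.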

Additional observations from a re-analysis of the deposited data

Results flagged for a closer look

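For each gene and group with differing values (25 in all), the highest and lowest of the 4 libraries were compared with the rest by Dixon's ratio of gap to range at its 95% critical value, and 6 libraries stood apart. In 2 of the groups 3 libraries were at 0, which fixes the ratio, so that the share expected by chance, about 1 in 20 groups, applies only to the 4 of the other 23. AMIGO2 in line 2 was far above the other lines in 3 groups, at 5.62 CPM at AAVS baseline, 5.51 CPM at CREBBP baseline and 4.52 CPM with IL4 in the CREBBP pool. TREML2 in line 2 was far below the others at CREBBP baseline, at 0.754 CPM. CCL17 in line 1 was the only value above 0 at AAVS baseline (0.0356 CPM) and at CREBBP baseline (0.0504 CPM), from 2 counts each, and these are the 2 groups in which the ratio was fixed.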

How the results depend on the processing

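No fold change of a tested gene of the set changed direction under any alternative run, and each comparison's median fold change moved by less than the spread between lines, but the number called depended on the setting. For IL4 in the AAVS pools, 3 genes of the set were called, against 7 with no filter, 5 by DESeq2, 4 by limma-voom, 0 with at least 10 counts in every library, and 0 to 6 with a line left out. For CREBBP against AAVS with IL4, 1 was called, against 7 with no filter, 6 by DESeq2, 6 by limma-voom, 2 with DESeq2 factors in edgeR and 0 to 7 with a line left out. For the difference in response, 0 were called, against 4 with no filter, 4 by DESeq2, 1 by limma-voom and 0 to 2 with a line left out. At baseline, 0 were called and 0 to 1 with a line left out. Without the block, which pairs the libraries of a line, the counts were 2 for IL4 in the AAVS pools, 0 for CREBBP against AAVS with IL4 and 0 for the difference. The IL4 response of the CREBBP pools gave 0 under every setting. Counts of 6 or 7 include CCL17 or IGSF3, which reached the filter's level almost only in AAVS IL4 libraries.

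Over all genes, 488 were called for IL4 in the AAVS pools, against 2062 by DESeq2, 860 by limma-voom, 1851 with no filter, 25 with at least 10 counts in every library and 64 to 1035 with a line left out. The 859 calls for CREBBP against AAVS with IL4 became 4154, 2032, 3466 and 682 in the same order, 540 without the block and 25 to 2547 with a line left out. The 140 for the difference became 1099, 587, 1191 and 69, 2 without the block and 16 to 264. The 0 at baseline became 511, 39, 586 and 0, and 0 to 515, and the 0 for IL4 in the CREBBP pools became 1, 0, 40 and 0. The filters change the genes tested and each leave-out has fewer libraries, but why the counts changed was not tested for any setting. For IL4 in the AAVS pools, 64 genes were called without line 1 and 1035 without line 2, from equally many libraries. Depth limits CLEC4A, CCL17, IGSF3 and, outside line 2, AMIGO2, with at most 43 counts per library outside the AAVS IL4 group.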
